A study of Mus musculus with 2 samples.

Results

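The mitochondrial respiratory chain is built from 5 protein complexes, and the genes described here are those that encode its nuclear-made subunits. They were chosen by symbol, as every gene that the annotation of the Affymetrix mouse genome array paired alone with a probe set and whose name started like those of NADH dehydrogenase (Nduf), succinate dehydrogenase (Sdh), the cytochrome bc1 complex (Uqcr), cytochrome c oxidase (Cox4 to Cox8) or ATP synthase (Atp5). The rule took 85 of the 18194 genes on the array, with 170 probe sets. Of these genes, 33 belonged to complex I, 8 to complex II, 8 to complex III, 19 to complex IV and 17 to complex V. Only 79 of the 85 are subunits, and the other 6, which the rule took in by their names, are the assembly factors Sdhaf1, Sdhaf2, Sdhaf3 and Sdhaf4, the supercomplex factor Cox7a2l and the subunit paralogue Ndufa4l2. Ndufa4, named for complex I, was counted with complex IV, where its protein resides.

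Total RNA came from the cerebrum of mice at postnatal day 14, 1 wild-type sample and 1 lag mutant sample, each on 1 array. The laggard mutation (lag) is a spontaneous, recessive splice-site change in Kif14, which encodes a kinesin motor protein of cell division, and the line had been backcrossed to C57BL/6J. The labels name the second sample only as mutant. They give neither sex nor the number of mice, so the spread between animals is not known, and no test was possible. Every difference below is a comparison of 2 arrays. In a bulk sample, fewer cells of a type and less RNA per cell cannot be told apart.

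The unit is the MAS5 signal, a linear fluorescence intensity per probe set, scaled so that both arrays had the same trimmed mean, 500.0. The median signal over all probe sets was 105 in wild type and 98.3 in the mutant. A probe set was taken as above background when its signal passed 57.3, a level set from 151 probe sets for receptors and keratin-associated proteins that brain does not make, and lower signals were raised to that level before a ratio was formed. The brightest probe set stood for a gene. Kif14 itself read 6.85 in wild type and 0.733 in the mutant, under background on both, so the mutated gene did not check the labels. The oligodendrocyte markers did separate the samples: all 6 measured (Mbp, Mobp, Mag, Cldn11, Cnp and Mog) were at least 2-fold lower in the mutant, their summed signal was 31138 against 2170, and Mobp and Mog were under background there. The 4 precursor markers summed to 10017 and 5528. The 5 neuronal markers had a median log2 ratio of -0.065 and summed to 64041 and 63421. Of the 3 telencephalic neuron markers, Tbr1 (992 in wild type and 1639 in the mutant) and Neurod6 (3338 and 4557) were at least 25% higher in the mutant and Neurod2 read 781 and 742. Of the 5 endothelial markers, 4 were lower in the mutant, 2 of them by at least 20%, with a median log2 ratio of -0.27 and sums of 2893 and 2467. Microglial markers summed to 7343 and 8957, and 4 of the 6 were at least 25% higher in the mutant. The part of cell composition in the results below was not tested.

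Complexes I, III and IV pass electrons from NADH to oxygen and pump protons across the inner mitochondrial membrane, complex II feeds in electrons from succinate, and complex V uses the proton gradient to make ATP. Neurons depend heavily on this chain for their ATP. Nearly all its subunits are nuclear genes, and their promoters are known for sites of the nuclear respiratory factors NRF1 and NRF2 (an ETS family factor, GABP) and of YY1, which tie their transcription together.

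Promoters are shown here because the selection rule did not use them and these motifs are known from genes of this kind. RefSeq promoter windows on GRCm38.p6, each of 300 bases with 250 before the transcription start, were held for 70 of the 85 genes. Both strands were searched for GCGCNNGCGC (NRF1), CCGGAAG (ETS), AAGATGGC (YY1) and, for the TATA box, the letters TATAAA, and no match to one of these overlapped a match to another in these promoters. The NRF1 letters occurred in the promoters of 18 genes (25.7%), against 9.61% of protein-coding genes, 6.23% of all promoters and 19.6% of the genes in the brightest quartile of the array. The ETS letters occurred in 20 genes (28.6%, against 12.9%, 8.86% and 19.7%). The YY1 letters occurred in 9 genes (12.9%, against 3.57%, 2.75% and 5.94%). At least 1 of the 3 was present in 41 genes (58.6%), against 23.0% of protein-coding genes and 38.6% of the brightest quartile. TATAAA occurred in 9 genes (12.9%, against 14.8%, 13.6% and 9.06%). The median promoter held 19 CG dinucleotides, against 13 for protein-coding genes. The letters do not show that a factor binds.

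One subunit promoter per complex was picked by the number of separate matches of the NRF1, ETS and YY1 motifs in the 150 bases before the start. Other genes of a complex may tie with it. The picked promoters are printed in the sense of the gene, with matches in capitals. They lie at chr17:66101560-66101709, minus strand (Ndufv2, complex I), chr13:74350241-74350390, minus strand (Sdha, complex II), chr10:80406822-80406971, minus strand (Uqcr11, complex III), chr5:115348959-115349108, minus strand (Cox6a1, complex IV) and chr11:115419920-115420069, minus strand (Atp5h, complex V).
Ndufv2: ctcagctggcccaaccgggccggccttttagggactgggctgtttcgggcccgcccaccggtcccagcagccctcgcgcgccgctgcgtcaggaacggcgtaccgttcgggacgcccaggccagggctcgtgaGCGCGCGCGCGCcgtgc
Sdha: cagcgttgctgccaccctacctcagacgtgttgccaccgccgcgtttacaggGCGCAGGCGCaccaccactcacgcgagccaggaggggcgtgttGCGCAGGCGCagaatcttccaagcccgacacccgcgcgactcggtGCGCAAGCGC
Uqcr11: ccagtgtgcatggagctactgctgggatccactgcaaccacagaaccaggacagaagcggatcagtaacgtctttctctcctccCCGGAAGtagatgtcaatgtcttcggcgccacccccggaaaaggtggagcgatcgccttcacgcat
Cox6a1: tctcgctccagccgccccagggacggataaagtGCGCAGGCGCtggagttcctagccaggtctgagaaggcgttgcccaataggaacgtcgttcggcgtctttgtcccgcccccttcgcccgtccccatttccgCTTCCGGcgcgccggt
Atp5h: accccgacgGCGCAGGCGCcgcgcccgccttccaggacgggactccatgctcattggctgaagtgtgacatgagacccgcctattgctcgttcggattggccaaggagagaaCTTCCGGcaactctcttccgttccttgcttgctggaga
Sdha held 3 NRF1 matches, Cox6a1 and Atp5h 1 NRF1 and 1 ETS match each (the ETS letters read on the other strand), Ndufv2 a run of GC repeats in which 2 NRF1 matches overlap, and Uqcr11 an ETS match. For contrast, the same 150 bases are given for the heart and muscle isoforms Cox7a1 (chr7:30184021-30184170, plus strand) and Cox8b (chr7:140900447-140900596, minus strand), which held none of the 4 motifs there. The whole 300-base window of Cox8b did hold TATAAA, and Cox8b is 1 of the 9 genes counted for it.
Cox7a1: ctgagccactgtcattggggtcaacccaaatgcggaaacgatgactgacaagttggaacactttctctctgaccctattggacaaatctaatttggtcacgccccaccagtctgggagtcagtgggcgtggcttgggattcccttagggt
Cox8b: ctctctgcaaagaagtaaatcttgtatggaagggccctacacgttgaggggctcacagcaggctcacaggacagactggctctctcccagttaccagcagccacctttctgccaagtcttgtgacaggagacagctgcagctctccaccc
The printed Cox7a1 and Cox8b windows had 4 and 1 CG dinucleotides, and those of Ndufv2, Sdha, Uqcr11, Cox6a1 and Atp5h had 22, 19, 9, 18 and 13. The latter were picked for their matches, and the NRF1 and ETS letters contain CG, so no conclusion is drawn from this contrast. Lack of the NRF1, ETS and YY1 letters is not particular to muscle isoforms, since only 41 of the 70 promoters held any of them. Ratios were near 0 with and without the motifs. The median log2 ratio of mutant over wild type was -0.025 for the 17 measured genes with the NRF1 letters and -0.018 for the 51 without, and -0.076 for the 20 with the ETS letters and -0.005 for the 48 without. For the YY1 letters it was -0.078 for 9 genes with and -0.015 for 59 without, and for TATAAA -0.079 for 8 and -0.019 for 60.

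Respiratory chain genes had nearly the same signal in wild-type and mutant cerebrum, and 71 of them fell in the brightest quartile of the measured genes. Of the 85 genes, 82 were above background on at least 1 array and 81 on both. Across these 81 genes, the log2 signals of the 2 arrays had a Pearson r of 0.996, given as a description because genes of 1 sample share a library and are not independent replicates. The median log2 ratio of the 82 measured genes was -0.022, that is, slightly lower in the mutant, with the middle 50% between -0.11 and 0.04 and a full range from -0.71 to 0.51. It was 0.010 over all 13488 genes measured. Signals were lower in the mutant for 49 genes and higher for 33. Over all measured genes 6504 were lower and 6984 higher, and in the brightest quartile 1648 and 1724.

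**Figure D1:**
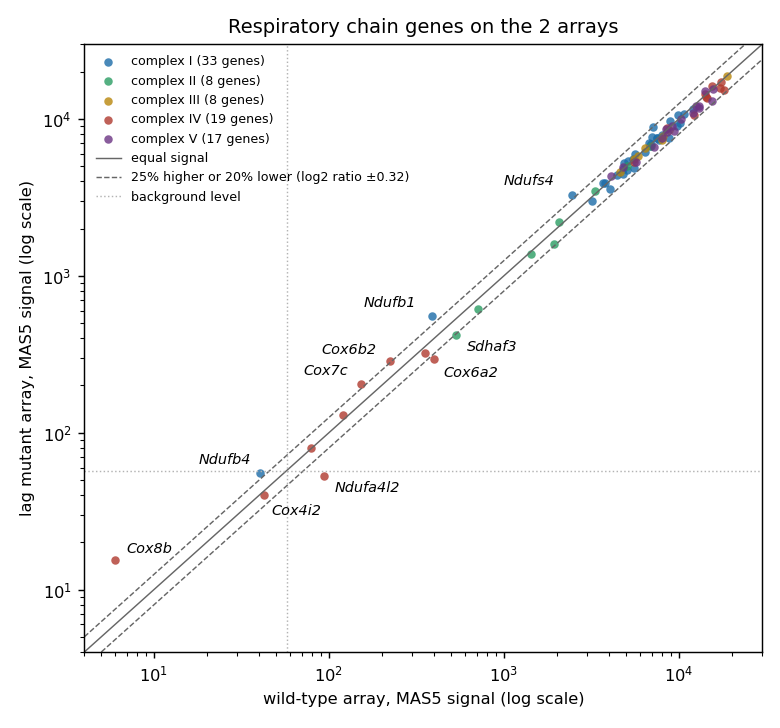
MAS5 signals of the 85 respiratory chain genes on the wild-type (x axis) and lag mutant array (y axis), both log scales, 1 point per gene coloured by complex. Dotted lines mark the background level of 57.3 and dashed lines a signal 25% higher or 20% lower in the mutant. The points follow the line of equal signal, and those that leave it are mostly genes of low signal.

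None of the 82 genes differed by 2-fold in either direction. Among all measured genes, a 2-fold lower signal in the mutant was seen for 0.927% and a 2-fold higher one for 0.615%, and in the brightest quartile (3372 genes with a mean signal of at least 1452) 0.237% and 0.148%. At a smaller difference, a signal at least 25% higher or 20% lower in the mutant (0.32 on the log2 scale), 3 genes were lower (Ndufa4l2, Cox6a2 and Sdhaf3) and 4 higher (Ndufb1, Cox7c, Ndufs4 and Cox6b2). The background at that difference was 10.3% lower and 12.2% higher over all measured genes, and 3.91% and 4.54% in the brightest quartile. The spread among the genes was also narrower than on the array as a whole. The SD across genes of the log2 ratio was 0.17 for the respiratory chain, 0.35 for all measured genes and 0.26 for the brightest quartile. Signals within 1.1-fold of each other were seen for 76.8% of the respiratory chain genes, against 44.7% of all measured genes and 60.3% of the brightest quartile. That quartile is not matched by signal: its median in wild type was 2779, against 6911 for the respiratory chain. Nor was a narrow spread particular to the chain. Genes of the tricarboxylic acid cycle and pyruvate entry had an SD of 0.092, with 88.9% within 1.1-fold, and glycolytic genes 0.17 and 47.1%.

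Signal level separated the steady genes from the others. The 71 genes in the brightest quartile had a median log2 ratio of -0.019, an SD of 0.12 and a range from -0.28 to 0.41, and 83.1% of them were within 1.1-fold. Only Ndufs4 among these 71 was past 0.32. Of the 14 remaining genes 11 were measured, and their SD was 0.38. They include 6 of the 7 genes past 0.32, and 5 of the 7 had a single probe set above background, so that no other probe set could be set beside them.

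**Figure D2:**
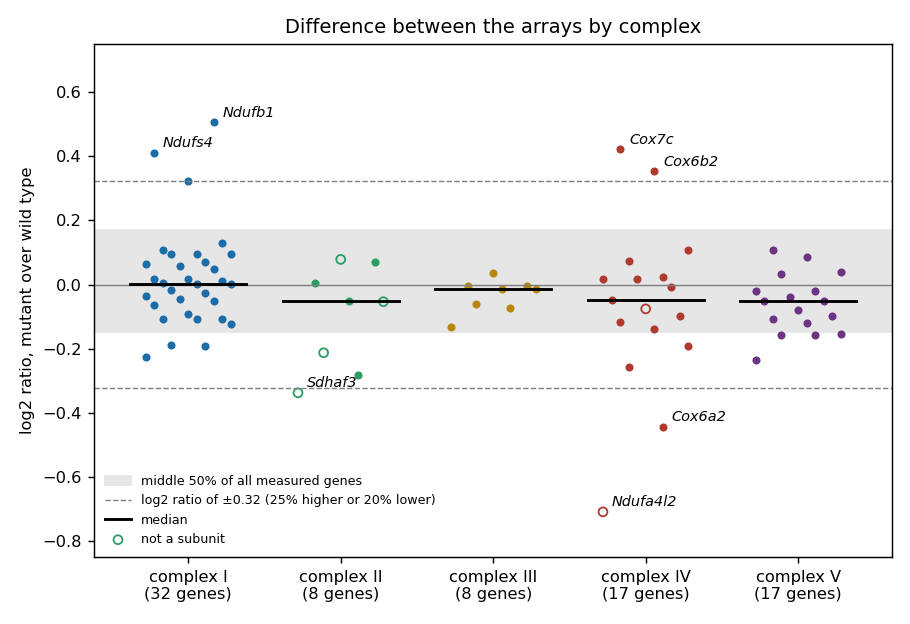
Log2 ratio of mutant over wild-type signal (y axis) for the 82 measured respiratory chain genes in the 5 complexes, 1 point per gene, with open circles for the genes that are not subunits. The black bar is the median of a complex, the grey band the middle 50% of all measured genes and the dashed lines ±0.32. All 5 medians lie within the grey band, and the 7 named genes are past the dashed lines.

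Complex I takes electrons from NADH and is the largest of the chain. Its 32 measured genes had a median log2 ratio of 0.003, with 14 lower and 18 higher in the mutant. The 6 core subunits measured (Ndufs1, Ndufs3, Ndufs7, Ndufs8, Ndufv1 and Ndufv2) had a median of -0.025 and lay between -0.19 and 0.02. The 26 accessory subunits, which surround and stabilise the core, had a median of 0.011.

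The 3 complex I genes with the highest mean signal of both arrays differed little between the samples. Ndufa1, an X-linked accessory subunit of the membrane arm, had a signal of 11970 in wild type and 11614 in the mutant. Ndufc2 had 10725 and 10758, and Ndufb9 9919 and 10592. Their log2 ratios were -0.044, 0.005 and 0.095.

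At the low end stood 2 accessory subunits. Ndufb11, also X-linked, had a signal of 8796 in wild type and 7522 in the mutant (log2 ratio -0.23), and its 3 probe sets were all lower, between -0.23 and -0.10. Ndufs5 had 5537 and 4851 (-0.19). Neither reached 0.32.

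At the high end, Ndufb1, a small membrane subunit, had a signal of 390 in wild type and 555 in the mutant (log2 ratio 0.51). It was represented by 1 probe set. Ndufs4, which helps to complete the NADH-oxidising arm and whose loss is a known mouse model of Leigh syndrome, had 2447 and 3253 (0.41) on its brightest probe set. Its other probe sets above background did not repeat this difference: they read 494 and 450 (-0.14) and 622 and 686 (0.14). Ndufb6 stood just under the threshold, at 7085 in wild type and 8856 in the mutant (0.32), and its second probe set read 5804 and 5912 (0.026).

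Ndufb4 had no usable value. Its only probe set of its own read 40.4 and 55.1, under background on both arrays, while 2 probe sets that it shares with its copies Ndufb4b and Ndufb4c read 6384 and 6863 and 4828 and 5070. Ndufs6 and Ndufa11 are not analysed here as single genes. Probe sets shared by Ndufs6 and Ndufs6b read 4914 and 4894, and the brighter one shared by Ndufa11 and Ndufa11b 5796 and 6005.

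Complex II is both an enzyme of the tricarboxylic acid cycle and an entry point of the chain, and all 4 of its subunits are nuclear genes. Their median log2 ratio was -0.022. The catalytic subunits Sdha (flavoprotein) and Sdhb (iron-sulfur protein) had signals of 5023 and 5043 (log2 ratio 0.006) and 6912 and 6675 (-0.050). Of the membrane anchors, Sdhd had 3301 in wild type and 3466 in the mutant (0.070), and Sdhc 1925 and 1584 (-0.28), the lowest ratio among the respiratory chain genes of the brightest quartile. The second probe set of Sdhc was also lower, at -0.13, and that of Sdhd read 762 and 986 (0.37).

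The rule also placed 4 assembly factors with complex II. Sdhaf3, which assists maturation of the iron-sulfur subunit, had 531 in wild type and 420 in the mutant (-0.34). Sdhaf1, with a like function, had 713 and 616 (-0.21). Sdhaf2, which helps to attach the flavin to Sdha, had 1429 and 1377 (-0.053), and Sdhaf4 2071 and 2187 (0.079). One of the 4, Sdhaf3, was past 0.32.

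Complex III passes electrons from ubiquinol to cytochrome c. Its 8 genes gave the narrowest range of the 5 complexes, from -0.13 to 0.04, with all 8 within 1.1-fold and a median of -0.015. The brightest were Uqcrb at 18802 in wild type and 18747 in the mutant (log2 ratio -0.004), Uqcrc2, a core protein, at 8803 and 8442 (-0.060), and Uqcr11 at 8153 and 7748 (-0.074). Uqcrh, the hinge protein, was lowest at 7991 and 7286 (-0.13). The highest ratios were those of Uqcrq, at 6366 and 6528 (0.036), and of the other core protein Uqcrc1, at 5826 and 5813 (-0.003). Uqcrfs1, the Rieske iron-sulfur protein, read 5572 and 5516 (-0.015). The narrow range holds for the brightest probe set of each gene. Uqcr10 read 4603 and 4557 (-0.014) on its brightest, but 258 and 435 (0.75) and 668 and 935 (0.48) on the others.

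Complex IV reduces oxygen to water, and its nuclear subunits include several that exist as a broadly expressed form and a form restricted to heart and muscle, testis or particular conditions. Of its 19 genes 17 were measured, with a median log2 ratio of -0.048 and the widest range of the 5 complexes, from -0.71 to 0.42. Without Ndufa4l2 and Cox7a2l, which are not subunits, the 15 measured subunits had a median of -0.007. The 4 genes past 0.32 all had a mean signal under 1000. Among the subunits with a single form, Cox7c read 153 in wild type and 205 in the mutant (0.42), and its second probe set 43.6 and 65.5, of which the wild-type value is under background. Both Cox7c probe sets were dim. Cox7b is not analysed here.

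Broadly expressed isoforms were bright in both samples. The 9 of complexes IV and V (Cox4i1, Cox6a1, Cox6b1, Cox7a2, Cox8a, Ndufa4, Atp5g1, Atp5g2 and Atp5g3) had a median log2 ratio of -0.12, from -0.26 to 0.09, with 6 lower and 3 higher in the mutant and none past 0.32. Cox4i1 had a signal of 14089 in wild type and 14328 in the mutant (0.024). Cox7a2 had 17314 and 17227 (-0.007), and Cox8a 8579 and 8690 (0.019). These 3 were level between the samples.

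Lower ratios were seen for 3 other broad forms of complex IV. Cox6a1 had a signal of 18191 in wild type and 15232 in the mutant (log2 ratio -0.26), but its second probe set read 11696 and 11628 (-0.008). Cox6b1 had 17169 and 15822 (-0.12), and its second probe set 9067 and 8886 (-0.029). Ndufa4 had 12142 and 10635 (-0.19) on its only probe set. Cox7a2l, which joins complexes III and IV into supercomplexes, had 5560 and 5276 (-0.076).

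Restricted isoforms were dim or under background. Of the 8, Cox4i2 (42.5 in wild type and 39.9 in the mutant), the isoform known from lung and low oxygen, and Cox8b (6.01 and 15.5), the heart and muscle form, were under background on both arrays. Cox6a2, the heart and muscle form that is also made by some interneurons, had 400 and 294 (log2 ratio -0.44). Cox7a1, another heart and muscle form, had 121 and 130 (0.11). Among the testis forms, Cox6b2 had 222 and 284 (0.35), Cox7b2 78.7 and 79.7 (0.017), and Cox8c 354 and 322 (-0.14), with 88.0 and 40.5 on its second probe set. The restricted forms therefore showed no common direction, with 3 lower and 3 higher among the 6 measured.

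Ndufa4l2, a paralogue of Ndufa4 that low oxygen induces and that brain pericytes express, had 93.5 in wild type and 53.4 in the mutant. The mutant value is under background, so its ratio is a bound, at least 1.63-fold lower in the mutant. The 6 pericyte markers had a median log2 ratio of 0.22 with none past 0.32, and their summed signals were 9392 and 9798. That median was 0.058 with the mean of all probe sets and -0.092 with probe sets of plain suffix only. Of 8 skeletal muscle markers 5 were under background on both arrays, and the 3 measured summed to 892 and 966, with Acta1 at 384 and 520 (0.44). The part of these cell types in the values of Cox6a2, Cox7a1 and Ndufa4l2 was not tested.

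**Figure D3:**
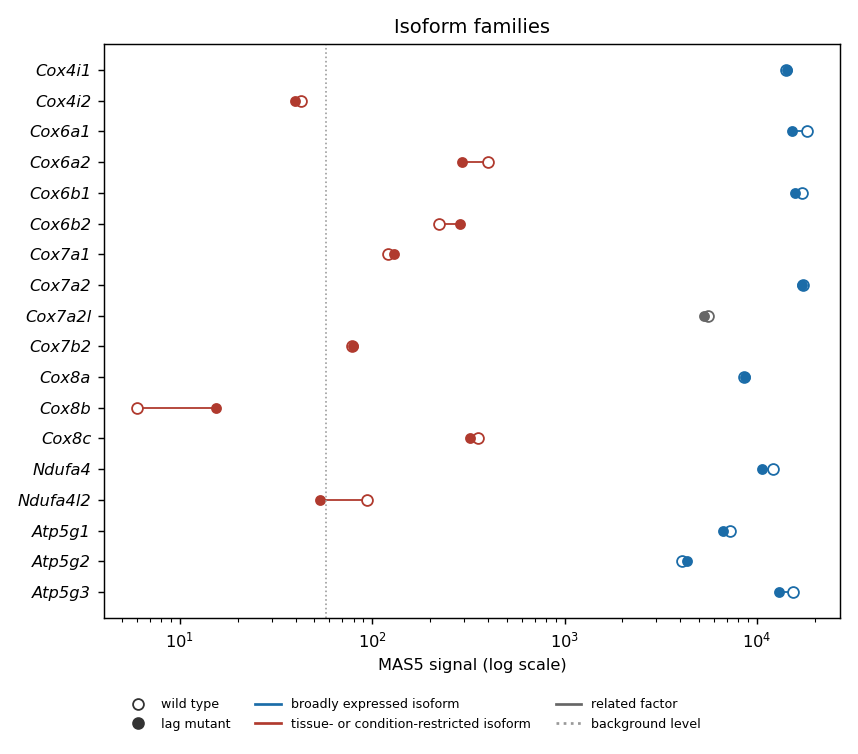
MAS5 signals (log scale) of the respiratory chain genes that exist as several isoforms, with open circles for wild type, filled circles for the lag mutant, blue for broadly expressed isoforms, red for restricted ones and grey for the related factor Cox7a2l. The dotted line is the background level of 57.3. The pairs of circles nearly coincide for Cox4i1, Cox7a2, Cox7b2 and Cox8a, and the widest gaps belong to Cox8b, which lies under the background level, and Ndufa4l2, which crosses it. Signals of different genes come from different probes and are not comparable with each other.

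Complex V, the ATP synthase, had 13 of its 17 genes lower in the mutant and 4 higher, against 6504 lower and 6984 higher over all measured genes. Its median log2 ratio was -0.051, with a range from -0.23 to 0.11. None was past 0.32. Of the catalytic head, Atp5b, the beta subunit, had the highest ratio at 14048 in wild type and 15130 in the mutant (0.11). On the brightest probe set, all 3 genes of the central stalk were lower, from -0.15 to -0.051. So were all 4 of the peripheral stalk, from -0.11 to -0.019. Other probe sets were higher for Atp5h (0.072), Atp5pb (0.097), Atp5o (0.52) and, on a dim one, Atp5c1 (0.32). The other probe set of Atp5d was lower (-0.067), and Atp5e and Atp5j had no other. Atp5pb, a bright member of the peripheral stalk, had 15630 and 15424 (-0.019).

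The 3 genes of the c-ring, the rotor in the membrane, encode the same mature protein. Atp5g3 had a signal of 15392 in wild type and 13090 in the mutant (log2 ratio -0.23), Atp5g1 7216 and 6640 (-0.12), and Atp5g2 4083 and 4334 (0.086). Atp5k, a membrane subunit of the synthase dimer, had 9375 and 8414 (-0.16). The direction within complex V was small against the disagreement of probe sets. Its median became -0.018 with the mean of all probe sets and 0.046 with probe sets of plain suffix only.

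Probe sets of one gene give a second look at the same RNA, though not a second sample. In 46 genes at least 2 probe sets were above background. The range of the log2 ratio within a gene had a median of 0.17, and in 23 of the 46 the probe sets had both signs. A range over 0.5 was seen in 7 genes. Atp5g1 had the widest, 1.0, where a dim probe set read 66.0 in wild type and 122 in the mutant (0.88) against -0.12 on the bright one. Sdha had 3377 and 2844 (-0.25) and 140 and 84.8 (-0.72) beside its level brightest probe set. Atp5o, a peripheral stalk subunit, had 9141 and 9020 (-0.019) on its brightest probe set and 3525 and 5064 (0.52) on the other. Ndufs8 ranged from -0.21 to 0.51 over 6 probe sets and Ndufc2 from -0.029 to 0.58 over 4, in both with the highest ratio on the dimmest. Uqcr10 and Ndufs4, given above, complete the 7.

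Dim probe sets spread more. The 30 probe sets of these genes with a mean signal under 1000 had an SD of the log2 ratio of 0.41, and the 123 brighter ones 0.12. Of the 7 differences past 0.32, 6 come from the dimmer class. They enter its SD, which is taken across genes, so it is no separate measure of their error. The difference of Ndufs4, in the brighter class, was not seen on its other probe sets.

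**Figure D4:**
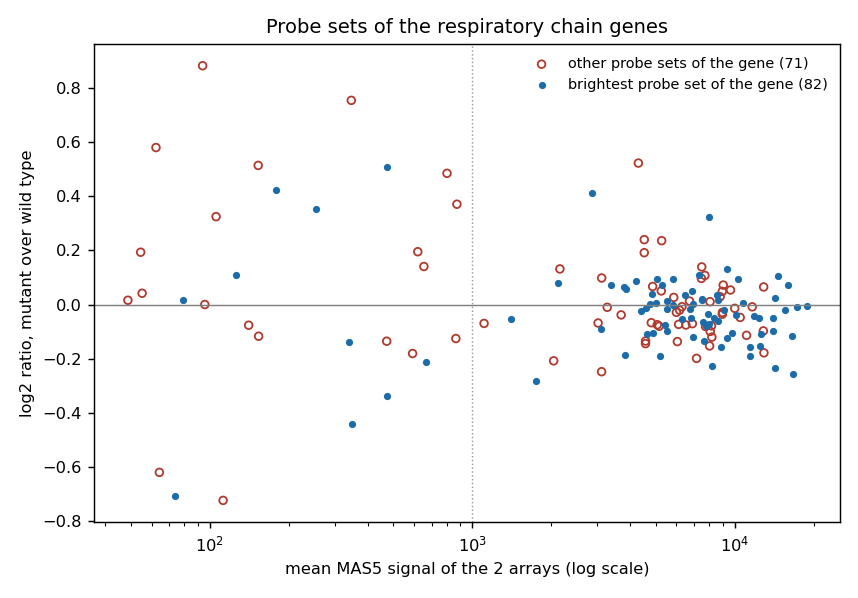
Log2 ratio of mutant over wild-type signal (y axis) against the mean MAS5 signal of both arrays (x axis, log scale) for the 153 probe sets of respiratory chain genes above background. Filled points are the 82 probe sets that stand for a gene, open circles the 71 others, and the dotted line marks a signal of 1000. The cloud narrows from an SD of 0.41 on the left of the line to 0.12 on the right.

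The positions of the genes were also set beside that of Kif14. On chromosome 1 lay 6 of the genes, and the nearest to Kif14 was Sdhc, at a distance of 34.6 Mb on GRCm38.p6. Its log2 ratio of -0.28 was the largest difference of the 6. The others were Ndufa10 (log2 ratio 0.050), Ndufs1 (-0.091), Ndufb3 (0.057), Cox5b (-0.048) and Sdhaf4 (0.079), the last at 112 Mb. None of the 6 was past 0.32.

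Other gene lists of the mitochondrion also had medians near 0. ND5, the single mitochondrially encoded subunit with a probe set here, had a signal of 18784 in wild type and 17574 in the mutant (log2 ratio -0.096). The nuclear subunits or regulators that the naming rule missed, Cyc1 (6843 and 6731), Ndufab1 (5387 and 5409) and Atpif1 (9198 and 9809), had ratios between -0.024 and 0.093. None of the mitochondrial or glycolytic genes listed below differed by 2-fold.

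Of 40 measured assembly factors, whose median log2 ratio was 0.014, none was lower and 2 were higher past 0.32. These were Cox15, needed for the heme A of complex IV, at 801 in wild type and 1209 in the mutant (0.59), and Cox16 at 889 and 1146 (0.37). All 4 probe sets of Cox15 were higher in the mutant, from 0.19 to 0.67. The brightest, Higd2a, was level at 6963 and 6955.

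Among 15 genes for electron carriers and ubiquinone synthesis (median 0.023), Cycs, the mobile carrier between complexes III and IV, had 15458 and 15710. Coq6 was lower at 268 and 177 (-0.60), and Coq4 higher at 476 and 631 (0.41), each on 1 probe set. The 18 genes of the tricarboxylic acid cycle and pyruvate entry had a median of 0.015 and none past 0.32. Their brightest, Mdh2, had 13241 and 12395 (-0.095).

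The 14 carriers, channels and kinases (median -0.090) included 1 lower gene, Ak4 at 663 and 436 (-0.60), and 1 higher, Slc25a27 at 161 and 216 (0.43). The other Ak4 probe sets above background were at -0.21 and 0.40. The other 3 probe sets of Slc25a27 were lower, from -0.66 to -0.51. Slc25a4, the ADP and ATP carrier, had 16054 and 15549. Of 27 genes for protein import and cristae (median -0.002), Timm9 was higher at 464 and 676 (0.54) but read 234 and 246 (0.074) on its other probe set, and Tomm20, an import receptor, had 11059 and 11591.

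The 21 genes of mitochondrial DNA, transcription and biogenesis had a median of -0.039. Nrf1, whose motif is searched above, had 153 in wild type and 84.6 in the mutant (-0.86) on its brightest probe set, and its other probe sets ranged from -0.66 to 0.021. Gfm1, a mitochondrial elongation factor, had 638 and 487 (-0.39), with 256 and 289 (0.17) on its other probe set. Tfam, which packages and transcribes mitochondrial DNA, had 822 and 1049 (0.35), and its other probe set 292 and 340 (0.22). The brightest gene of the list, Ssbp1, which binds single-stranded mitochondrial DNA, had 2924 and 2985 (0.030). The Nrf1 signals were low, and no common direction was seen in this list.

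The 76 measured genes of the mitochondrial ribosome had a median of 0.044, with 29 lower and 47 higher in the mutant. Past 0.32 were 3 lower (Mrps30, Mrps36 and Mrps5) and 3 higher (Mrpl55, Mrpl33 and Mrpl9). Mrpl55 had the widest difference, 507 and 941 (0.89) on 1 probe set. All 3 probe sets of Mrpl9 were higher, from 0.35 to 0.54, whereas the other 4 of Mrps5 lay between -0.10 and 0.25. The brightest, Mrpl39, had 4083 and 3604 (-0.18). The 17 glycolytic genes had a median of -0.088. Pfkl, at 498 and 360 (-0.47), and Pkm, at 3652 and 2914 (-0.33), were lower past 0.32, with -0.21 and 0.041 on the other probe sets of Pfkl, and Gapdh had 16521 and 16332.

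**Figure D5:**
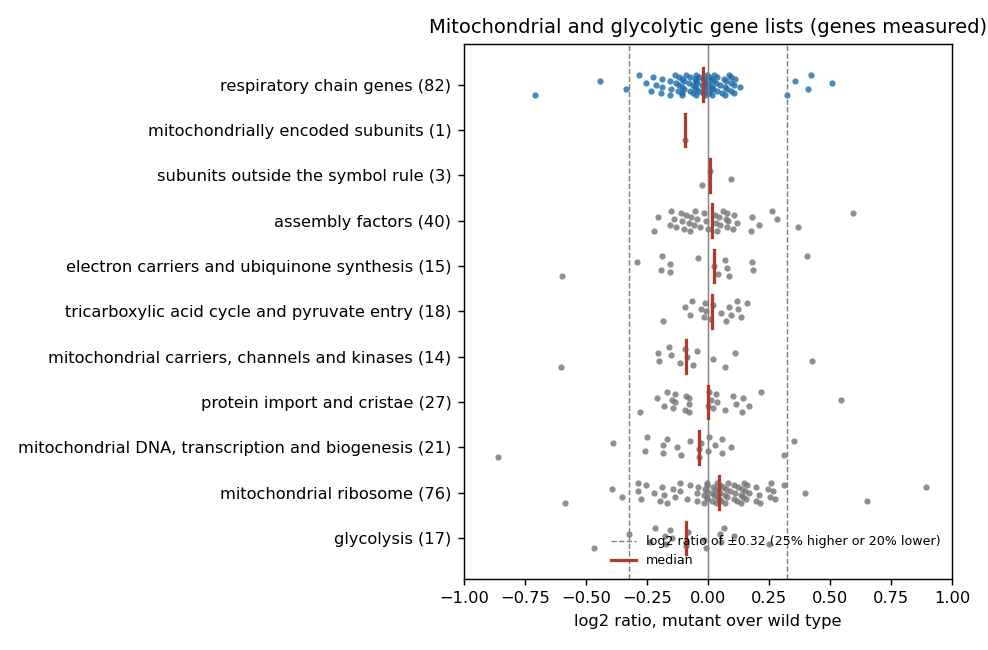
Log2 ratio of mutant over wild-type signal (x axis) for the respiratory chain genes (blue) and 10 related lists (grey), 1 point per measured gene, with the number of genes in brackets. Red bars are medians and dashed lines ±0.32. All 11 medians lie between -0.10 and 0.05.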

How the data were processed

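The samples were 2 Affymetrix mouse genome arrays, 1 per genotype. The authors extracted total RNA, labelled it with a 3' in vitro transcription kit and computed globally scaled MAS5 signals. What they deposited are linear intensities, 1 per probe set, with no detection calls. Per the labels, MAS5 was the tool. The scaling target and the number of mice are not given in the sources used here. Actb 3'/5' ratios were 1.55 and 1.38 and Gapdh ratios 0.819 and 0.772 (wild type, mutant).

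The annotation gave 1 gene for 34958 of 45101 probe sets, several for 932 and none for 9211. 34754 matched RefSeq GRCm38.p6 by gene identifier. Python 3.11.15, numpy 2.4.6, pandas 2.3.3, scipy 1.17.1 and matplotlib 3.10.9 were used. The background was the higher of the 95th percentiles of both arrays (57.3 and 51.1) over 151 probe sets of olfactory, taste and vomeronasal receptors, keratin-associated proteins and defensins. A gene was measured if above it on at least 1 array. The procedure was tested on simulated data, with changes only in genes well above background and equal on all probe sets of a gene. That test does not cover dim genes or probe sets that disagree. With 1 array per group no p-value was computed, and the number of arrays limits the precision.

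Named in each complex were the 3 brightest genes and the 2 lowest and 2 highest ratios, then every gene past 0.32 on the log2 scale, under background, with isoforms, with a probe set range over 0.5 or not a subunit. In each mitochondrial or glycolytic list the brightest gene and up to 4 past 0.32 were named. Core subunits, Ndufb6, Uqcrfs1, chromosome 1 genes, the genes past 0.32 beyond 4 in the mitochondrial ribosome list, marker genes, second probe sets and members of shared probe sets were chosen for naming with their values in view. The genes and lists were chosen with earlier results of these data known. Alternatives concerned the probe set, normalization, background, membership and fold.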

Additional observations from a re-analysis of the deposited data

How the results depend on the processing

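No paired analysis was possible because the design holds 1 sample of each genotype. Of 60 alternative values for the overall median and the 5 complex medians, 57 stayed within the interval that the genes themselves give. Since the medians lie near 0, signs still turned within it. That of complex IV was 0.023 with quantile normalization, that of complex III 0.018 with the mean of all probe sets and 0.014 with probe sets of plain suffix, and that of complex I -0.007 after centring. The median of complex II, with 8 genes, went from -0.052 to -0.13 with the mean of all probe sets, also inside the interval. The interval is taken over genes and does not give the spread between animals. The 3 values outside the interval concerned the probe set. With only probe sets of plain suffix, the overall median was 0.017 and that of complex V 0.046, and with the mean of all probe sets that of complex V was -0.018. The number of genes at least 2-fold higher was 0, and 1 with no background level. Of genes lower past 0.32 there were 3, and 5 with the mean of all probe sets. There was 1 without the genes that are not subunits, 1 without the restricted isoforms and 1 at 1.5-fold. There were 2 with quantile normalization or the background at percentile 99, and 14 at 1.1-fold. Of genes higher past 0.32 there were 4, and 6 with probe sets of plain suffix or no background level. Quantile normalization, the background at percentile 90 and 1.1-fold each gave 5. There were 3 without the restricted isoforms and 0 at 1.5-fold. The cause was not tested beyond the construction of each alternative. Of the ratios of single genes, 290 moved by less than the SD of genes of like signal and 7 by more (those of Atp5g1, Uqcr10, Atp5o, Ndufs4 and Sdha), all with the choice of probe set. All 131 values for the lists kept within their interval, though the sign of some medians turned, as for the pericyte markers. The SD of the log2 ratio over all measured genes was 0.44 in the dimmest quartile by signal and 0.26 in the brightest, so differences of dim genes are the least certain.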

Other observations

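Probe sets that the annotation pairs with several genes were left out of the comparison. There were 9 that name a respiratory chain gene. One for Ndufs5 and a pseudogene copy read 5346 in wild type and 4803 in the mutant (log2 ratio -0.15), close to the -0.19 of the probe set for Ndufs5 alone. A probe set for Ndufb2 and Adck2 read 139 and 76.6 (-0.86), whereas the brightest for Ndufb2 alone read 6827 and 6742 (-0.018). The pair shared by Ndufa13 and Yjefn3 read 3.03 and 38.4, both under background, and 14.8 and 96.6, of which the mutant value was above it, whereas Ndufa13 alone read 7446 and 7537 (0.017). The dimmer of the probe sets for Ndufa11 and Ndufa11b read 89.1 and 109 (0.29).

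Of the 4 choroid plexus markers, 3 were higher in the mutant past 0.32. Folr1, a folate receptor, read 206 in wild type and 474 in the mutant, Aqp1, a water channel, 136 and 222, and Kl 79.4 and 111, while Ttr, the transthyretin carrier protein, read 22753 and 20819. Gfap, an intermediate filament of reactive astrocytes, read 156 and 274 (log2 ratio 0.81), while the other 4 astrocyte markers lay between -0.29 and 0.11.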
